A study of Mus musculus with 12 samples.

Results

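H3K4me3 regions that border H3K27me3 without overlapping it numbered 1421 in mouse embryonic fibroblasts (MEFs), out of 16628 H3K4me3 regions in all. They were found by joining overlapping H3K4me3 peaks over 4 peak lists, 1 for each condition, into regions. A region was kept if it was under 5000 bp long, was present in all 4 lists, overlapped no H3K27me3 peak of any list and lay within 5000 bp of at least 1 such peak. The members were thus chosen by the measured peak positions of both marks, and their being close to H3K27me3 is no finding. Of the 16628 regions, 13107 were present in all 4 lists and 12567 of these were under 5000 bp. The 1421 bordering regions, called members here, made up 11.3% of these 12567 (95% interval 10.8 to 11.9). Of the others under 5000 bp, 1897 overlapped H3K27me3, 870 had a gap of over 5000 and up to 10000 bp, and 8379 had no H3K27me3 peak within 10000 bp.

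Trimethylation of lysine 4 on histone H3 (H3K4me3) is laid down by the SET1 and MLL enzyme complexes and marks active or poised promoters, mostly at CpG-rich DNA. Trimethylation of lysine 27 (H3K27me3) is laid down by Polycomb repressive complex 2 and spreads over domains of silenced genes, many of them developmental regulators. PRC2 works poorly on a histone tail that already carries H3K4me3, so that the marks often meet at a border instead of lying on the same nucleosomes. LincRNA-p21, deleted in the knockout cells, is a nuclear long noncoding RNA that p53 switches on after DNA damage. By its title, the study asked whether this RNA promotes expression of genes targeted by Polycomb.

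The marks were mapped by chromatin immunoprecipitation with sequencing in primary MEF cultures of a hybrid 129/B6 background. The 4 conditions were lincRNA-p21 knockout (KO) MEFs with doxorubicin, KO MEFs with mock treatment, wild-type (WT) MEFs with doxorubicin and WT MEFs with mock treatment. Doxorubicin is a DNA-damaging drug and its dose is labelled as 0.5 mM, with an exposure of 24 h; whether that unit is a slip cannot be told from the labels. Each mark and condition had 1 library, so that no difference below has a replicate check and no p-value was computed. The knockout and wild-type cultures shared background and treatment, and the labels do not say how many embryos gave the cells. The peak lists carry no gene names and no gene annotation was used, so that regions are named by their mm9 position and the fibroblast label was not checked against marker genes. No sequence of the regions is shown for the same reason.

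The lists held 14326 to 16477 H3K4me3 peaks and 16160 to 17828 H3K27me3 peaks. Read depth is unknown, because the lists give no read counts. WT mock had the most covered length for both marks, with 33.4 Mb of H3K4me3 against 27.1 to 32.1 Mb in the other lists, and 48.0 Mb of H3K27me3 against 35.9 to 39.0 Mb. The score of a peak is the authors' own value, -10 times the log10 of the p-value given by the peak caller, with a floor of 80. Median scores of the H3K27me3 lists were 141.5 to 154.6, near that floor. Peaks are numbered by name, and many numbers up to the highest are missing. For H3K27me3 39.0% were missing in WT mock and 46.0 to 47.2% in the other lists, and for H3K4me3 6.83 to 10.3%. A peak absent from a list may thus have been called and then left out. Intervals are 95% intervals, exact binomial for shares and from binomial order statistics for medians, and cover counting error over regions only.

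The distance to H3K27me3 was spread almost evenly over the allowed range. The gap from the joined H3K4me3 region to the nearest H3K27me3 peak of any list had a median of 2274 bp (interval 2149 to 2407) and ran from 6 to 4991 bp, with quartiles of 1190 and 3531 bp. In steps of 500 bp the number of members lay between 119 and 163, with no crowding of members close to the H3K27me3 edge. In the next 10 steps, out to 10000 bp, each held 61 to 113 regions. The gap was 200 bp or less in 68 members and 1000 bp or less in 308. At the limits of the rule, the widest gaps inside were 4968, 4985 and 4991 bp and the narrowest outside were 5005, 5006 and 5008 bp. The longest regions inside were 4928, 4963 and 4977 bp, and the shortest left out by length alone were 5240, 5295 and 5727 bp. H3K27me3 lay to the left of 742 members and to the right of 679 on the reference strand.

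**Figure D1:**
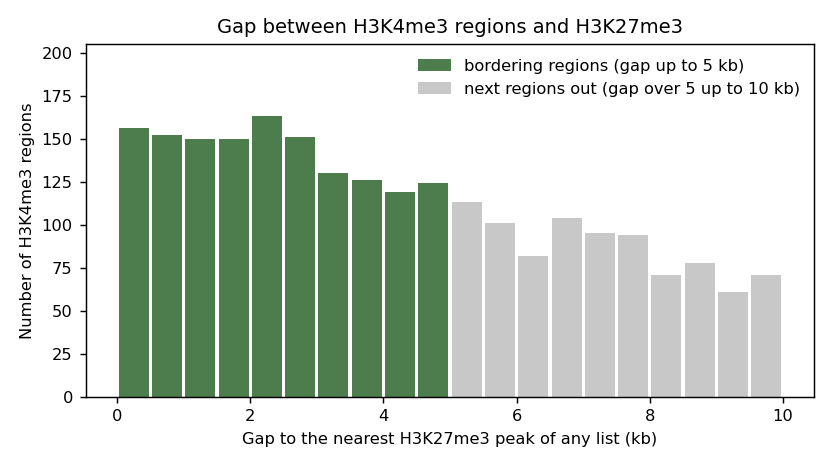
Number of H3K4me3 regions under 5000 bp in all 4 lists (vertical axis) by their gap to the nearest H3K27me3 peak of any list (horizontal axis, kb, steps of 500 bp). Green bars are the 1421 members and grey bars the 870 regions next further out; the counts decline slowly with no step at the limit of 5000 bp.

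The 5 members closest to H3K27me3 show how the joined gap and the gap within a condition differ. On chromosome 9 from 37351782 to 37353038 the joined gap was 6 bp, but the gap within each condition was 4483 bp in KO doxorubicin, 295 bp in KO mock, 3586 bp in WT doxorubicin and 3847 bp in WT mock cells. The close neighbour was a KO mock peak of 1129 bp with a score of 135.4, and the other lists lacked it. On chromosome 11 from 101120984 to 101123074 the joined gap was also 6 bp, and the gap was 395 bp in KO doxorubicin cells, 278 bp in KO mock cells and 85 bp in WT doxorubicin cells. In WT mock cells the nearest H3K27me3 on that side lay 43453 bp away, so that this border was in the 3 other lists.

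On chromosome 17 from 24341237 to 24344313 the gap was 3052 bp in KO doxorubicin, 4900 bp in KO mock, 59401 bp in WT doxorubicin and 41 bp in WT mock cells. Its H3K4me3 peak spanned 1798 bp in KO doxorubicin and 1431 bp in KO mock, against 2865 bp in WT doxorubicin and 3048 bp in WT mock cells. The H3K4me3 peaks of both KO lists were thus shorter than those of both WT lists at this place. On chromosome 2 from 80286088 to 80288990 H3K27me3 was 18 bp away in WT doxorubicin cells, with a score of 91.7, and 46171 bp or more away in the other lists. On chromosome 8 from 113141791 to 113143914 the gap was 342189 bp in KO doxorubicin, 257 bp in KO mock, 1126 bp in WT doxorubicin and 24 bp in WT mock cells.

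Members were narrower H3K4me3 regions than those far from H3K27me3, in every list. The median width was 1791 bp in KO doxorubicin, 1701 bp in KO mock, 1775 bp in WT doxorubicin and 1971 bp in WT mock cells. For the 8379 regions with no H3K27me3 within 10000 bp it was 2068, 1946, 2064 and 2269 bp in the same order. The 870 regions with a gap of over 5000 and up to 10000 bp lay between, at 1923.5, 1806.5, 1914 and 2128.5 bp. The intervals of the members, such as 1748 to 1821 bp in KO doxorubicin cells, did not reach those of the far regions, 2044 to 2087 bp in the same list.

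H3K4me3 scores of members were also below those of the far regions in every list. The median score was 2585.4 in members and 2884.0 in the far regions of the KO doxorubicin list, and 1279.5 and 1437.8 in the KO mock list. It was 1854.2 and 2096.5 in the WT doxorubicin list, and 1711.3 and 1941.7 in the WT mock list. The medians of all 12567 regions were 2463.4, 1236.7, 1906.0 and 1690.8 in the same order. Each lay inside the interval of the members' median. These intervals were 2450.4 to 2682.0, 1233.1 to 1349.5, 1805.3 to 1945.4 and 1627.5 to 1774.7. Members thus did not stand apart in score from all 12567 regions. A score of 3100 or more, where many peaks pile up, was held by 37.4% of the members in KO doxorubicin cells, 3.73% in KO mock, 16.3% in WT doxorubicin and 12.6% in WT mock cells. Among the far regions the shares were 46.0%, 8.77%, 26.7% and 22.1% in the same order, again lowest in KO mock cells. Joined members had a median length of 2106 bp (2066 to 2137), and 1334 of the 1421 were a single peak in every list.

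Members were found on every autosome and were rare on the X chromosome. Of the H3K4me3 regions under 5000 bp in all 4 lists, members made up 9.05% (chromosome 14) to 13.9% (chromosome 7) on the autosomes. On the X chromosome they were 5 of 397, or 1.26% (0.41 to 2.91). The X chromosome also held 83 of the 24298 joined H3K27me3 regions, against 561 or more on each autosome.

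The H3K27me3 regions beside members were somewhat longer, and in more of the lists, than H3K27me3 regions at large. The 1421 members had 1367 different nearest H3K27me3 regions, after joining H3K27me3 peaks over the 4 lists in the same way. Their median joined length was 1968 bp, against 1730 bp for all 24298 joined H3K27me3 regions. Of the 1367, 32.3% were present in all 4 lists and 38.1% in 1 list, against 26.1% and 44.1% of all H3K27me3 regions. Neighbours present in all 4 lists were long, at a median of 4357 bp, and neighbours in 1 list were short, at 1152 bp. For all H3K27me3 regions these medians were 4589 and 1121 bp.

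Neighbours carried H3K4me3 of their own in 10.9% of cases, against 13.0% of all H3K27me3 regions. Among those in all 4 lists it was 26.8%, against 36.3%. A pair of members shared the same nearest H3K27me3 region in 54 cases, and in 42 of them the members stood on opposite sides of it. Of the members, 49 had H3K27me3 within 5000 bp on both sides. In 49 members another H3K4me3 region lay in the gap. Members that share a neighbour are not independent of each other.

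The 5 members beside the highest-scoring H3K27me3 neighbours were picked among those with H3K27me3 in reach in all 4 lists. On chromosome 2 from 158450129 to 158452362, beside a joined domain of 25095 bp, the gap was 2147 bp in KO doxorubicin, 2507 bp in KO mock, 1795 bp in WT doxorubicin and 1360 bp in WT mock cells. On chromosome 10 from 126957537 to 126959874 it was 992, 1261, 1069 and 1110 bp in the same order, the steadiest of the 5. The H3K4me3 peak there spanned 2338 bp in KO doxorubicin and 2186 bp in KO mock, against 1547 bp in WT doxorubicin and 1362 bp in WT mock cells. Its KO peaks reached further out on the side away from H3K27me3, while the near edge stayed within 87 bp over the 4 lists.

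On chromosome 6 from 83027259 to 83029478 the gap was 1747 bp in KO doxorubicin, 2359 bp in KO mock, 2188 bp in WT doxorubicin and 847 bp in WT mock cells. On chromosome 19 from 5566684 to 5569295 it was 3040, 1798, 1510 and 859 bp in the same order. At these places WT mock had the smallest gap. On chromosome 9 from 62979839 to 62980872, beside a domain of 27115 bp, the gap was 492, 692, 613 and 334 bp. The H3K4me3 peak there was weak, with scores of 204.7, 121.6, 440.6 and 296.6.

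The 5 widest neighbours were 29708 to 42472 bp long after joining. The widest flanked the member on chromosome 2 from 31526126 to 31527241, where the gap was 4785 bp in KO doxorubicin, 5157 bp in KO mock, 3987 bp in WT doxorubicin and 3661 bp in WT mock cells. The member on chromosome 2 from 152839418 to 152841517 had gaps of 992, 1051, 832 and 875 bp in the same order. On chromosome 17 from 45692247 to 45694819 they were 3386, 3317, 3818 and 3156 bp. At both of these borders the 4 gaps lay closer together than at the others of the 5. The member on chromosome 10 from 79937519 to 79938890 varied most of the 5, with 4584, 2324, 1850 and 1463 bp. The last, on chromosome 4 from 116960605 to 116962864, had gaps of 5178, 5182, 4579 and 3882 bp.

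**Figure D2:**
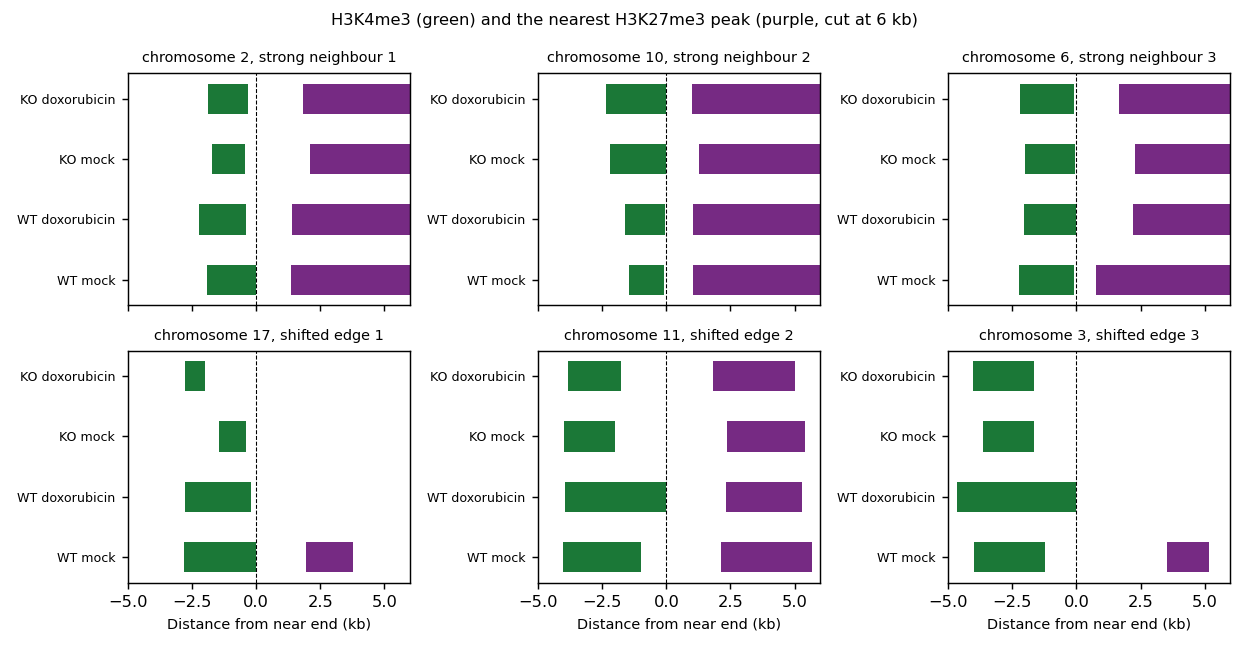
H3K4me3 peaks (green) and the nearest H3K27me3 peak (purple, drawn up to 6 kb) in the 4 conditions for 6 named members, by distance in kb from the near end of the joined H3K4me3 region, turned so that H3K27me3 lies to the right. The upper panels show the 3 members with the highest-scoring neighbours, picked among those with H3K27me3 in reach in all 4 lists. The lower panels show the 3 members whose near edge was shifted furthest inward in KO doxorubicin against WT doxorubicin cells.

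H3K27me3 was within 5000 bp of a member in some conditions and not in others. On the near side, which is the side of the closest H3K27me3 peak of any list, H3K27me3 lay within 5000 bp of 797 members in KO doxorubicin cells (56.1%) and of 767 in KO mock cells (54.0%). It did so for 850 in WT doxorubicin cells (59.8%) and for 964 in WT mock cells (67.8%). The rule needs 1 such list, so that these counts describe the choice of members and are no test. All 4 conditions had it for 408 members (28.7%, 26.4 to 31.1), 3 conditions for 234, 2 for 265 and 1 for 514 (36.2%). Among members with a joined gap of up to 1000 bp 46.4% had it in all 4 conditions, and among those over 4000 bp 6.58%. The joined gap is the smallest over the lists, so that a wide one leaves the other lists little room below 5000 bp. The lower share at wide gaps thus follows in part from the limit and does not show that closer borders are more constant.

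Members with H3K27me3 in 1 condition alone had weak neighbours. They numbered 94 in KO doxorubicin, 103 in KO mock, 126 in WT doxorubicin and 191 in WT mock cells. The median score of those neighbours was 104.0, 96.7, 100.1 and 111.6 in the same order, against 208.9, 236.9, 223.2 and 272.9 where all 4 conditions had H3K27me3. For 335 of the 514 no other list had H3K27me3 within 10000 bp on that side, and for 179 another list had it at over 5000 and up to 10000 bp. The strongest neighbours of this kind were of the second sort. On chromosome 2 from 181414215 to 181416106 the gap was 6106 bp in KO doxorubicin, 5734 bp in KO mock, 5469 bp in WT doxorubicin and 4857 bp in WT mock cells. On chromosome 11 from 98299117 to 98300741 it was 5480, 5726, 5409 and 4198 bp in the same order. In these members all 4 lists held a peak, and the gaps lay on either side of the limit. Reach is measured from the end of the joined region and the gap from the condition's own H3K4me3 edge, so that a gap can slightly pass 5000 bp in a list counted as in reach.

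The leading members of the other conditions were also at the limit. For KO doxorubicin the gaps on chromosome 9 from 64808218 to 64810041 were 5100, 5742, 5322 and 5211 bp in the same order, and on chromosome 9 from 67687483 to 67689500 they were 4571, 6310, 5249 and 5623 bp. For KO mock they were 5625, 4997, 6470 and 6085 bp on chromosome 2 from 148497532 to 148499603, and 8496, 5097, 8011 and 5318 bp on chromosome 7 from 4816869 to 4818680. For WT doxorubicin they were 6130, 6479, 4931 and 5653 bp on chromosome 3 from 89575932 to 89580158. The other WT doxorubicin member, on chromosome 15 from 89144366 to 89146486, had gaps of 17349, 5345, 4587 and 5862 bp, and KO doxorubicin was the list that lacked the nearby peak.

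**Figure D3:**
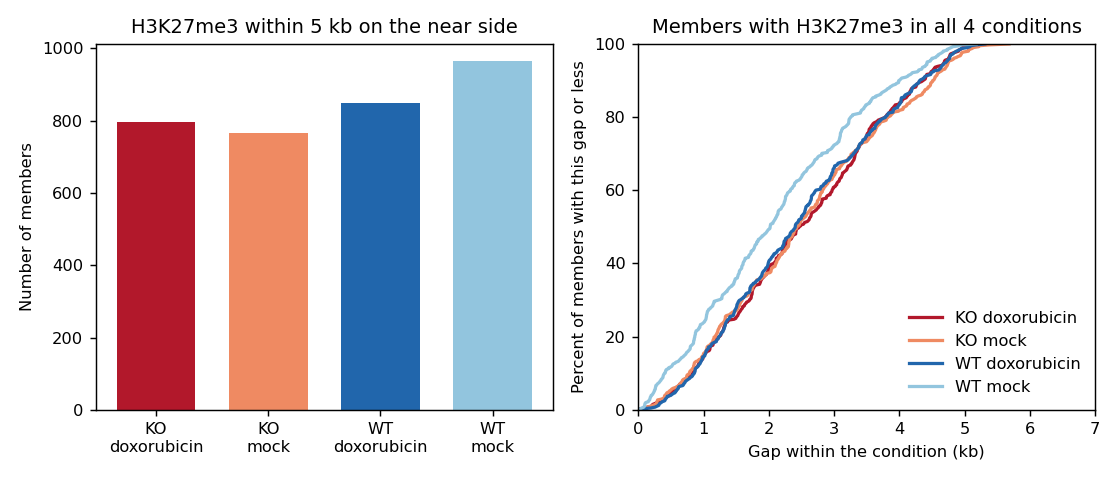
Left, number of the 1421 members with an H3K27me3 peak within 5000 bp on the near side in each condition. Right, cumulative percent of the 408 members with H3K27me3 within 5000 bp in all 4 conditions against the gap within each condition (kb); the WT mock line lies left of the other 3, which run together.

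In the 408 members with H3K27me3 in reach everywhere, the gap was narrowest in WT mock cells. Its median was 2473.5 bp in KO doxorubicin (2245 to 2750), 2437.5 bp in KO mock (2303 to 2645), 2404.5 bp in WT doxorubicin (2228 to 2565) and 2020 bp in WT mock cells (1791 to 2191). WT mock had the smallest gap of the 4 conditions in 220 of the 408, and the other lists in 60 to 65 each. The gap was seldom constant. Its range over the 4 conditions had a median of 1058 bp (952 to 1152) and was 1000 bp or more in 52.7%. The WT mock lists were also the ones with the widest peaks of both marks, at a median of 2043 bp for the H3K27me3 neighbours against 1318 to 1454.5 bp in the other lists. The part of peak width in the gap was not tested.

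Edge shifts were measured for each member as the difference in the position of an H3K4me3 edge between a pair of conditions, positive where the edge lay further out in the first. The near edge is on the side of the closest H3K27me3 peak of any list, and the far edge lies opposite. All members were counted, also those with H3K27me3 in reach in neither list compared. For these, toward and away refer to a peak of another list. They numbered 225 in WT doxorubicin against WT mock and 384 in KO doxorubicin against KO mock. In KO against WT cells they numbered 265 under mock treatment and 341 under doxorubicin. A shift of 200 bp or more was counted. The same counts over all 12567 regions under 5000 bp in the 4 lists serve as background, and adjoining comparisons share lists. Background regions that overlap H3K27me3 took their near side from the closest peak lying wholly outside them.

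Doxorubicin in WT cells went with shorter H3K4me3 regions and wider gaps. In WT doxorubicin against WT mock cells the near edge shifted by a median of -84 bp (-93 to -77), that is, away from H3K27me3. The far edge shifted by -88 bp (-101 to -79), and in regions with no H3K27me3 within 10000 bp the edges shifted by -97 and -102 bp. The shift was thus no smaller on the far edge or in regions far from H3K27me3. The near edge lay 200 bp or more closer to H3K27me3 in 50 members (3.52%, background 6.35%) and as much further away in 314 (22.1%, background 24.3%). The far edge lay as much further out in 120 members (8.44%, background 7.92%) and further in in 373 (26.2%, background 26.6%). In the 618 members with H3K27me3 in reach in both lists the median gap was 2569 bp in WT doxorubicin and 2186 bp in WT mock cells. The gap change within members had a median of 275 bp (222 to 336). It came with a median shift of -84.5 bp at the H3K4me3 edge and -179 bp at the edge of each list's nearest H3K27me3 peak. Negative means away from the other mark, and the nearest peaks of a pair of lists need not belong to the same H3K27me3 region. H3K27me3 was in reach in WT doxorubicin alone of the pair for 232 members and in WT mock alone for 346. Of all joined H3K27me3 regions, 19.1% and 21.6% were in the first list alone and in the second alone. Here and in the comparisons below, these shares count H3K27me3 regions present in a list. They are a different measure from the reach of a member.

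The largest shifts toward H3K27me3 in this comparison were in members with a joined length of 3283 to 4657 bp. On chromosome 3 from 89151774 to 89156430 the H3K4me3 width was 2378 bp in KO doxorubicin, 1980 bp in KO mock, 4657 bp in WT doxorubicin and 2752 bp in WT mock cells, and the near edge shifted by 1223 bp. On chromosome 11 from 4962090 to 4966101 the widths were 2039, 1989, 3966 and 3037 bp in the same order, and the shift was 975 bp. Both KO peaks were shorter than both WT peaks at these places, and the WT doxorubicin peak was the longest of the 4. On chromosome 10 from 79894251 to 79897533 the shift was 711 bp. The largest shifts away were -1022 bp on chromosome 7 from 75892562 to 75895256, -958 bp on chromosome 3 from 87752325 to 87754891 and -712 bp on chromosome 14 from 68230828 to 68232600. The last pair had low H3K4me3 scores in the lists compared, 121.0 in WT doxorubicin and 200.9 in WT mock cells on chromosome 3, and 427.3 and 227.2 on chromosome 14. At the member on chromosome 7 neither WT list had H3K27me3 in reach. The gap there was 81098 bp in WT doxorubicin and 1527880 bp in WT mock cells.

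Doxorubicin in KO cells went with slightly longer H3K4me3 regions and a median gap change near 0. In KO doxorubicin against KO mock cells the near edge shifted by a median of 37 bp (28 to 45) and the far edge by 32 bp (23 to 40), against 49 and 46 bp in regions with no H3K27me3 within 10000 bp. The near edge lay 200 bp or more closer to H3K27me3 in 219 members (15.4%, background 18.0%) and as much further away in 83 (5.84%, background 7.7%). For the far edge the counts were 254 outward (17.9%, background 19.2%) and 135 inward (9.5%, background 8.38%). In the 527 members with H3K27me3 in reach in both lists the median gap was 2765 bp in KO doxorubicin and 2621 bp in KO mock cells. Within members the gap change had a median of -19 bp (-75 to 31), an interval that holds 0, with quartiles of -476 and 413 bp. Single gaps thus differed in either direction around a median near 0. H3K27me3 was in reach in KO doxorubicin alone for 270 members and in KO mock alone for 240. Of all joined H3K27me3 regions 21.0% and 18.2% were in the first list alone and in the second alone.

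The largest shifts toward H3K27me3 with doxorubicin in KO cells were 1122 bp on chromosome 6 from 113255466 to 113259435, 922 bp on chromosome 4 from 88938646 to 88942641 and 856 bp on chromosome 7 from 25668412 to 25673274. At the first the H3K4me3 width was 3312 bp in KO doxorubicin, 2227 bp in KO mock, 3970 bp in WT doxorubicin and 3576 bp in WT mock cells. At the second it was 3564, 2512, 3253 and 3996 bp in the same order. KO mock had the shortest peak of the 4 lists at both. Neither KO list had H3K27me3 in reach at these places. The gaps in KO doxorubicin and KO mock cells were 17609 and 15096 bp at the first, and 8234 and 12738 bp at the second. The largest shifts away were -1608 bp on chromosome 17 from 48110714 to 48113526, -931 bp on chromosome 1 from 152838507 to 152841171 and -873 bp on chromosome 7 from 52959446 to 52964373. On chromosome 17 the KO doxorubicin peak, 769 bp wide with a score of 83.9, and the KO mock peak, 1052 bp wide with a score of 114.2, did not overlap each other. Single peaks of 2582 bp in WT doxorubicin and 2813 bp in WT mock cells, with scores of 435.8 and 270.0, joined them. Neither KO list had H3K27me3 in reach there, with gaps of 39556 bp in KO doxorubicin and 37639 bp in KO mock cells.

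KO mock cells had shorter H3K4me3 regions than WT mock cells and wider gaps. The near edge shifted by a median of -119 bp (-131 to -107) and the far edge by -130 bp (-145 to -120), against -141 and -144 bp in regions with no H3K27me3 within 10000 bp. The near edge lay 200 bp or more closer to H3K27me3 in 39 members (2.74%, background 3.41%) and as much further away in 466 (32.8%, background 38.5%). For the far edge the counts were 81 outward (5.7%, background 4.54%) and 531 inward (37.4%, background 39.9%). In the 575 members with H3K27me3 in reach in both lists the median gap was 2681 bp in KO mock and 2191 bp in WT mock cells. Within members the gap change had a median of 339 bp (291 to 408). It came with a median shift of -118 bp at the H3K4me3 edge and -212 bp at the edge of each list's nearest H3K27me3 peak. H3K27me3 was in reach in KO mock alone for 192 members and in WT mock alone for 389. Of all joined H3K27me3 regions 15.6% and 22.0% were in the first list alone and in the second alone.

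The largest shifts away in KO mock cells were -1174 bp at the member on chromosome 17 from 24341237 described above, -1068 bp on chromosome 6 from 113255466 to 113259435 and -1047 bp on chromosome 4 from 88938646 to 88942641. The last pair also led the shifts toward H3K27me3 with doxorubicin in KO cells, a comparison that shares the KO mock list. The largest shifts toward were smaller, at 479 bp on chromosome 2 from 17966968 to 17971279, 430 bp on chromosome 4 from 132767712 to 132769663 and 367 bp on chromosome 8 from 87431817 to 87433933. At the last the gap was 2137 bp in KO doxorubicin, 1929 bp in KO mock, 2228 bp in WT doxorubicin and 2335 bp in WT mock cells.

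Under doxorubicin, KO and WT cells had nearly the same middle position of the edges. In KO doxorubicin against WT doxorubicin cells the near edge shifted by a median of 7 bp (-1 to 15) and the far edge by 3 bp (-8 to 13), against 10 and 12 bp in regions with no H3K27me3 within 10000 bp. The near edge lay 200 bp or more closer to H3K27me3 in 138 members (9.71%, background 12.7%) and as much further away in 154 (10.8%, background 17.3%). For the far edge of the same members these shares were 15.1% outward (background 14.6%) and 19.0% inward (background 20.0%). In the 567 members with H3K27me3 in reach in both lists the median gap was 2727 bp in KO doxorubicin and 2560 bp in WT doxorubicin cells, and the change within members had a median of 62 bp (13 to 127). In the 408 members in reach in all 4 lists it was 36 bp (-33 to 97), and with equal numbers of top-scoring peaks 31 bp (-35 to 84), and both of these intervals hold 0. H3K27me3 was in reach in KO doxorubicin alone for 230 members and in WT doxorubicin alone for 283. Of all joined H3K27me3 regions 19.5% and 20.7% were in the first list alone and in the second alone.

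The largest shifts away in KO doxorubicin cells were -1812 bp on chromosome 17 from 48110714 to 48113526, -1773 bp on chromosome 11 from 4962090 to 4966101 and -1644 bp on chromosome 3 from 89151774 to 89156430. On chromosomes 17 and 3 neither doxorubicin list had H3K27me3 in reach. The gaps in KO and WT doxorubicin cells were 39556 and 37772 bp on chromosome 17, and 135081 and 12231 bp on chromosome 3. On chromosome 11 the gap to a domain in all 4 lists was 3575 bp in KO doxorubicin, 4364 bp in KO mock, 2328 bp in WT doxorubicin and 3124 bp in WT mock cells. Both KO gaps there were wider than both WT gaps. The largest shifts toward were 859 bp on chromosome 2 from 17966968 to 17971279, 594 bp on chromosome 4 from 117222267 to 117224360 and 594 bp on chromosome 9 from 46080477 to 46082712. On chromosome 9 the H3K4me3 width was 2013 bp in KO doxorubicin cells, 1530 bp in KO mock cells, 1372 bp in WT doxorubicin cells and 2236 bp in WT mock cells, so that the WT doxorubicin peak was the shortest.

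**Figure D4:**
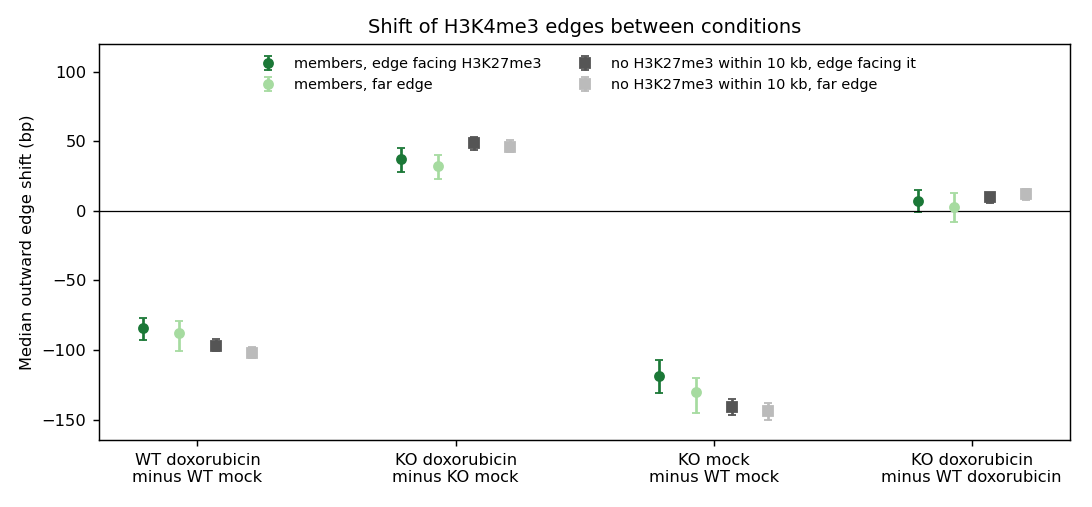
Median outward shift of H3K4me3 edges in bp (vertical axis) in the 4 comparisons, with 95% order-statistic intervals over regions. Circles are the 1421 members and squares the 8379 regions with no H3K27me3 within 10000 bp, dark for the edge facing H3K27me3 and light for the far edge; in each comparison the 4 points lie close together.

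The edge facing H3K27me3 varied less over the 4 lists than the far edge of the same region. The spread of an edge was taken as the distance between its outermost and innermost position in the 4 lists. Its median was 239 bp at the near edge (229 to 246) and 287 bp at the far edge (278 to 298). It was 500 bp or more at the near edge in 89 members, or 6.26% (5.06 to 7.65), with a background of 14.6%. At the far edge it was so in 263 members, or 18.5% (16.5 to 20.6), with a background of 18.5%. Without the KO mock list the shares were 3.03% at the near edge and 13.7% at the far edge, and without the WT doxorubicin list 4.08% and 12.2%. The far edge had the larger spread in 861 members and the near edge in 558. The rule left out any region that reached H3K27me3 at either end in any list, and the near end is the one closer to H3K27me3. The choice of members thus limits the near edge more than the far edge, while the length limit bounds both. How much of the difference this makes was not tested. In members with a gap of over 4000 bp the shares were 4.12% at the near edge and 19.3% at the far edge, and in the 1897 regions that overlap H3K27me3 they were 19.0% and 20.3%. In these overlapping regions the near side is that of the closest peak lying wholly outside, not of the peak they overlap.

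Further from H3K27me3 the near-edge share came closer to the far-edge share. Regions in all the steps below were likewise chosen to miss H3K27me3 in every list. The steps thus do not show how much that choice adds to the difference. In the 5 steps of 1000 bp out to 5000 bp the share of regions with a near-edge spread of 500 bp or more was 4.12 to 7.64%. It was 7.01% (3.98 to 11.3) in the step from 5000 to 6000 bp, 9.08% in all regions with a gap of over 5000 and up to 10000 bp and 15.5% (14.8 to 16.3) in those with no H3K27me3 within 10000 bp. The far-edge shares were 11.7% in members up to 1000 bp from H3K27me3, 19.3 to 21.0% in the other steps out to 5000 bp, 19.3% from there to 10000 bp and 17.9% beyond. Members with a single peak in each list and no other H3K4me3 region within 5000 bp, 1118 in number, had 5.01% at the near edge and 17.0% at the far edge. The near and far shares lay further apart in longer members. Joined length includes the spread itself, so that a wide spread helps to put a region in the longer class. Shares in the shorter class are held low by the same split, which thus cannot show what length does to the spread. In the 813 members of 2000 bp or more the shares were 8.61% and 29.6%, and in the 608 shorter ones 3.12% and 3.62%. In far regions of 2000 bp or more they were 20.2% and 23.5%, and in shorter far regions 4.73% and 4.85%. Shorter regions with a gap of over 5000 and up to 10000 bp had 2.88% and 5.13%, so that among shorter regions the near-edge shares of the 3 sets lay close together.

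**Figure D5:**
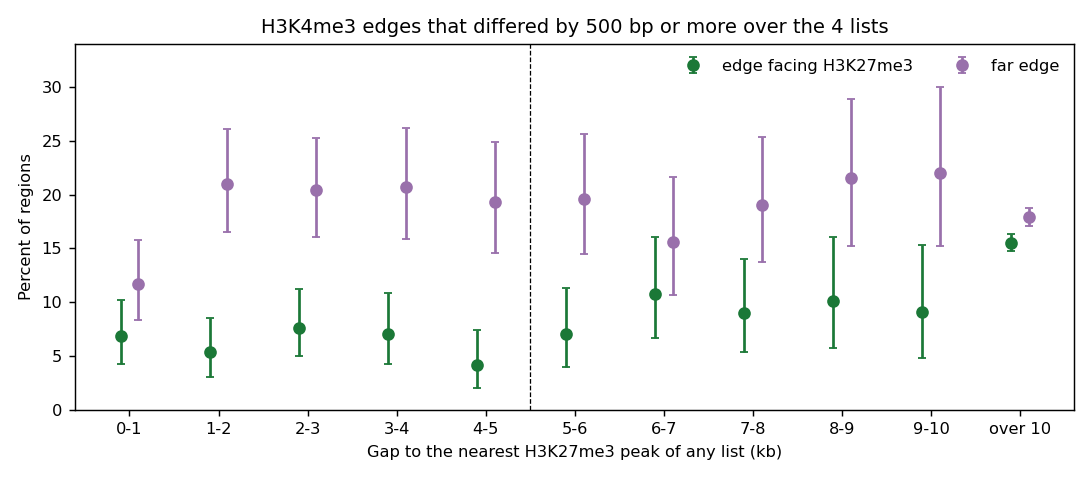
Percent of H3K4me3 regions under 5000 bp in all 4 lists whose edge position spread over 500 bp or more (vertical axis), by gap to the nearest H3K27me3 peak of any list (horizontal axis, kb), with exact 95% binomial intervals. Members lie left of the dashed line, where the edge facing H3K27me3 (green) stays at 4.12 to 7.64% and the far edge (purple) at 11.7 to 21.0%.

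The shares at the facing and opposite edges of H3K27me3 were close. Most of these edges passed the 500 bp cut, so that an asymmetry like that of H3K4me3 could hardly show at it. For the 461 members whose nearest H3K27me3 region was present in all 4 lists, the edge facing H3K4me3 had a spread of 500 bp or more in 77.9% (73.8 to 81.6) and the opposite edge in 78.3% (74.3 to 82.0). Median spreads were 1033 bp at the facing edge (932 to 1151) and 948 bp at the opposite edge (875 to 1022). The facing edge shifted outward by a median of -223 bp (-284 to -177) in WT doxorubicin against WT mock cells. It shifted by -44 bp (-104 to 11) in KO doxorubicin against KO mock and -232 bp (-298 to -184) in KO mock against WT mock cells. In KO doxorubicin against WT doxorubicin cells it shifted by -43 bp (-100 to 4). The opposite edge shifted by -180, -52, -286 and -100 bp in the same order, so that the shift was not confined to the facing edge. Over both edges of all 6335 H3K27me3 regions in the 4 lists the medians were -173, -19, -223 and -55 bp. The spread of the facing H3K27me3 edge, at a median of 1033 bp in these members, was wider than that of the near H3K4me3 edge over all members, at 239 bp.

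The shift of the near H3K4me3 edge was nearly unrelated, from member to member, to that of the nearest H3K27me3 edge. That edge is the one of the nearest peak in each list, so that a change of the nearest peak counts as a shift too. Across members with H3K27me3 in reach in both lists, Pearson's r between the near-edge shift of H3K4me3 and the shift of the H3K27me3 edge was 0.01 in WT doxorubicin against WT mock (n = 618) and 0.07 in KO doxorubicin against KO mock (n = 527). It was 0.07 in KO mock against WT mock (n = 575) and -0.02 in KO doxorubicin against WT doxorubicin (n = 567). These are correlations across regions of the same libraries, which share depth and peak calling, and regions are not independent replicates.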

How the data were processed

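Peaks were called by the authors for each ChIP library against an input library, per the file headers and names, with 1 list for each mark and condition. The aligner Bowtie 0.12.7, the peak caller MACS 1.4.2 and mm9 come from the submitters' processing notes. The deposited score is headed as -10 times log10 of the p-value and is not normalized between lists. Deposited starts were taken to count from 0 and are printed counting from 1. Input libraries and reads were not analysed here.

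Peaks overlapping by at least 1 bp were joined over the 4 lists of a mark. For each member the near side was that of the closest H3K27me3 peak of any list, and the gap within a condition ran from that condition's H3K4me3 edge to its nearest H3K27me3 peak on that side. Named regions were the 5 smallest gaps, the 3 largest near-edge shifts in each direction per comparison, the 5 highest-scoring and the 5 widest neighbours, and 2 members per condition with H3K27me3 there alone. The 5 highest-scoring neighbours were taken among members with H3K27me3 in reach in all 4 lists. Members, lists and rules were chosen with earlier results of these data known, and the edge spread was added after the data were seen. With 1 library per group no test was run. The rules were tested on simulated peaks. Tables were read with pandas 2.3.3 under Python 3.11.15, intervals came from scipy 1.17.1 with numpy 2.4.6, and plots from matplotlib 3.10.9. Read depth is unknown, and counts of gene families among members were not analysed here.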

Additional observations from a re-analysis of the deposited data

Results flagged for a closer look

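In the members, doxorubicin against mock went with edges in opposite directions in the 2 genotypes. The median near-edge shift was 37 bp in KO and -84 bp in WT cells, and the median far-edge shift was 32 bp in KO and -88 bp in WT cells. The median gap change with doxorubicin was -19 bp in KO cells, with an interval of -75 to 31 bp that holds 0, and 275 bp in WT cells (222 to 336).

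The comparison of KO with WT cells gave medians near 0 under doxorubicin and negative ones under mock treatment. The median near-edge shift was 7 bp in doxorubicin and -119 bp in mock cells, and the median far-edge shift was 3 bp in doxorubicin and -130 bp in mock cells. Both intervals under doxorubicin, -1 to 15 bp at the near edge and -8 to 13 bp at the far edge, hold 0. With 1 library per group these differences were not tested. The WT mock list, which had the widest peaks of both marks, enters the comparison of treatments in WT cells and that of genotypes in mock cells, and not the other two.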

How the results depend on the processing

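With 1 library per group, differences of depth and enrichment between lists are part of each value. Weak H3K27me3 peaks near the score floor of 80 decide many borders. No paired analysis was possible because the labels give no replicate numbers and each group has 1 library. Planned counts of gene families were not run, because no mm9 annotation was used.

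The 36 results computed kept within their interval, or within 1.5 times of a count, in each of 5 settings: a score of at least 100, equal numbers of top peaks, joining of H3K27me3 under 3000 bp, joining of H3K4me3 under 500 bp, and members with H3K27me3 on 1 side within 10000 bp. Median shifts and gap changes kept their sign in the 9 settings that recompute them, except the far-edge shift in KO doxorubicin against WT doxorubicin cells, which ran from -4 to 12 bp. The interval of the gap change in that comparison held 0 in 5 of the 9. Conditions below follow the order KO doxorubicin, KO mock, WT doxorubicin, WT mock. With a distance limit of 2500 bp there were 771 members, with H3K27me3 in reach of 354, 374, 417 and 508, median gaps of 1566.5, 1560, 1601 and 1434.5 bp, widths 1743, 1656 and 1745 bp in the first 3 conditions, where the median moved beyond its interval, and 21% in reach in all 4. The gap change in KO mock against WT mock cells was then 271 bp and the far-edge share with a spread of 500 bp or more 16.3%. With a distance limit of 10000 bp there were 2291 members, with H3K27me3 in reach of 1404, 1403, 1510 and 1660, median gaps of 4656.5, 4796, 4629 and 4315 bp, widths 1837, 1738, 1826 and 2020 bp, and 37.2% in reach in all 4. A length limit of 3000 bp gave widths of 1687, 1619, 1676 and 1864 bp and spread shares of 4.79% at the near and 12.4% at the far edge. Counting H3K27me3 regions of at least 2 lists put 42.4% in reach in all 4. Counting shifts of 100 bp or more gave 11.5, 35, 7.95 and 25.1% toward and 45.5, 17, 54.1 and 25.1% away, for doxorubicin against mock in WT and in KO, then KO against WT in mock and in doxorubicin cells. Counting shifts of 500 bp or more gave 0.281, 1.2, 0 and 0.563% toward and 0.774, 0.281, 2.74 and 1.34% away, for doxorubicin against mock in WT and in KO, then KO against WT in mock and in doxorubicin cells. Alternatives for the spread were chosen after seeing the data. Near and far shares were 30.9% and 47.4% at 300 bp, and 0.633% and 3.73% at 1000 bp. Members with single peaks and no other H3K4me3 within 5000 bp had 5.01% at the near edge. Leaving out each condition in turn gave 3.03 to 4.79% at the near edge and 12.2 to 14.8% at the far edge; the lower share of 3 lists follows from their number, and the near-edge share fell by over 1.5 times without KO mock (3.03%) and without WT doxorubicin (4.08%), and the far-edge share without WT doxorubicin (12.2%).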
